A study of Mus musculus with 4 samples.

Results

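The 10 genes described here (Myh11, Myl9, Acta2, Actg2, Tagln, Cnn1, Lmod1, Mylk, Des and Synpo2) encode parts of the contractile apparatus of smooth muscle. They were chosen by symbol, and each matched 1 of the 48526 gene rows of the deposited table. RNA was sequenced in 4 mouse samples of lamina propria mononuclear cells, immune and other cells freed from the tissue beneath the lining of the gut. The DKO group (n = 2) had received CD4 T cells lacking Hobit and Blimp, a pair of transcriptional repressors of tissue-resident lymphocytes, and its samples are labelled with mild colitis. The wild-type group (n = 2) had received wild-type CD4 T cells, and its samples are labelled with pronounced colitis. Both groups received a transfer, and DKO or wild type names the transferred T cells only. Transferred genotype and severity of colitis changed together and cannot be told apart. The sources used here give neither strain, age nor sex of the recipients. The series' text calls the samples of a group biological replicates, without saying whether each came from 1 animal or from several.

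Smooth muscle contracts when calcium and calmodulin activate myosin light chain kinase, which phosphorylates the regulatory light chain and lets myosin pull on actin filaments. The filaments are held at dense bodies and linked by desmin filaments, and their genes are switched on together by serum response factor (SRF) with its partner myocardin. In the gut this machinery is found in the muscle layers and the thin muscularis mucosae, and in the walls of vessels.

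SRF binds the CArG box (CC, then 6 letters that are A or T, then GG), and TEAD factors bind the M-CAT element, whose core is CATTCC. Windows of 300 bases around the start site (250 before it and 50 after it), taken from RefSeq on GRCm38.p6, were used for 7 of the 10 genes, all but Myh11, Actg2 and Tagln. The lines below are shown because they hold each CArG box or CATTCC found in these windows. Each is 30 bases long and printed 5′ to 3′ on the strand of the gene, with the motif in capitals; GGAATG is CATTCC read on the other strand.
Acta2 (chr19:34255438-34255467, minus strand, motif from 84 bases before the start): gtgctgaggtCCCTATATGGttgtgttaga
Acta2 (chr19:34255388-34255417, minus strand, motif from 34 bases before the start): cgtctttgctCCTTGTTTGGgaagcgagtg
Acta2 (chr19:34255502-34255531, minus strand, motif from 146 bases before the start): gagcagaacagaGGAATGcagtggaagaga
Myl9 (chr2:156775293-156775322, plus strand, motif from 161 bases before the start): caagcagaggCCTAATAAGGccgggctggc
Myl9 (chr2:156775355-156775384, plus strand, motif from 99 bases before the start): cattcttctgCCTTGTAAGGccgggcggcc
Lmod1 (chr1:135324671-135324700, plus strand, motif from 130 bases before the start): ccaagattccctGGAATGtcctcaagtttc
Mylk (chr16:34784780-34784809, plus strand, motif from 158 bases before the start): tgcagttcagaaCATTCCctggtacgtgca

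The first Myl9 line holds an exact CArG box, and the other 3 CArG lines depart from it at 1 of the 6 inner letters. An exact box was found in 1 of the 7 windows, against 1.63% of the 32851 windows in the RefSeq table, and a box with at most 1 departure in 2 of the 7, against 9.98%. CATTCC on either strand was found in 3 of the 7, against 14.66%. A CArG box reads as a CArG box on both strands, so 1 strand was searched, and none of the lines holds both motifs. The motifs were chosen after the letters were seen, and a match is not a site of binding. The GENCODE annotation of GRCm38 starts Acta2 further upstream, so that all 3 Acta2 lines lie within an exon there. It also starts Mylk further upstream, so that the RefSeq start used here is an internal start and the Mylk line lies inside the gene, outside its exons.

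All 10 contractile genes were higher in both DKO samples than in both wild-type samples. Expression is given as rlog, the regularized log2 value deposited by the authors, on which a difference of 1 is a doubling and which shrinks differences, above all in genes at low counts. In limma, with p-values adjusted over the 13528 genes whose mean rlog was at least 4, all 10 rose, against 9.92% of genes called higher and 4.85% called lower in DKO, which is 14.8% in either direction. The median difference of the 10 genes was 1.38, against -0.022 over all tested genes. The differences ran from 1.24 for Synpo2 to 1.76 for Myh11, which is 2.36-fold to 3.38-fold, and differences of at least 1 were found in 1.81% of genes. In bulk samples, fewer cells of a type and less RNA per cell cannot be told apart.

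These calls rest on how the spread is estimated. With a robust variance estimate only Lmod1 and Synpo2 passed (adjusted p = 8.9e-06 and 0.0191), and the other 8 genes had adjusted p from 0.19 to 0.362. With no minimum on the mean rlog none of the 10 passed (adjusted p from 0.0641 for Lmod1 to 0.274 for Actg2), and 181 genes of the whole table were then called higher and 25 lower.

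**Figure D1:**
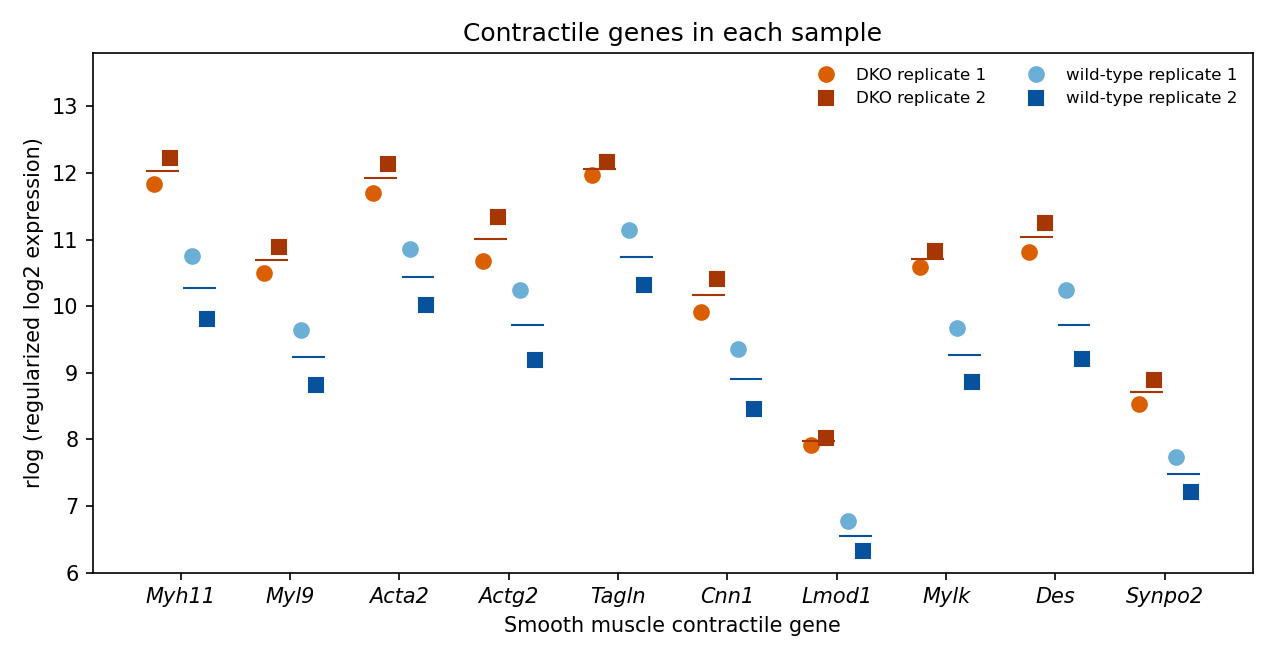
Expression (rlog, y axis) of the 10 contractile genes (x axis) in each sample, with DKO in orange and brown and wild type in blue; short lines are the means of 2 samples. For every gene DKO replicate 2 is highest, followed by DKO replicate 1, wild-type replicate 1 and wild-type replicate 2.

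Myosin was represented by its smooth muscle heavy chain and a regulatory light chain. Myh11, the smooth muscle myosin heavy chain (ENSMUSG00000018830, GRCm38 chromosome 16, 14194535 to 14291372), reached rlog 11.84 and 12.23 in the DKO samples, against 10.76 and 9.80 in the wild-type samples. Its difference of 1.76 (SE 0.234, adjusted p = 0.000416) was the largest of the 10. Myl9, the regulatory light chain that the kinase phosphorylates (ENSMUSG00000067818, chromosome 2, 156775420 to 156781658), stood at 10.50 and 10.89 in DKO and at 9.65 and 8.82 in wild type, with a difference of 1.47 (SE 0.211, adjusted p = 0.000706). In both genes the groups did not overlap, and the wild-type samples lay further apart than the DKO samples.

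Both smooth muscle actins rose. Acta2, the form of vascular smooth muscle, which myofibroblasts also make (ENSMUSG00000035783, chromosome 19, 34241090 to 34255590), reached 11.70 and 12.13 in DKO, against 10.85 and 10.01 in wild type (difference 1.48, SE 0.216, adjusted p = 0.000738). Actg2, the form most abundant in visceral muscle (ENSMUSG00000059430, chromosome 6, 83512905 to 83536265), stood at 10.68 and 11.34 in DKO and at 10.24 and 9.20 in wild type (difference 1.29, SE 0.276, adjusted p = 0.00825). Actg2 had the largest spread of the 10 genes in each group and the smallest gap between the groups. Its lowest DKO value was 0.44 above its highest wild-type value, while its DKO samples differed by 0.66 and its wild-type samples by 1.04.

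Proteins that bind or cap the thin filament followed. Tagln, which encodes transgelin (SM22), an actin-binding protein (ENSMUSG00000032085, chromosome 9, 45929619 to 45936058), had values of 11.96 and 12.16 in DKO, against 11.15 and 10.31 in wild type (difference 1.33, SE 0.2, adjusted p = 0.000908). Cnn1, which encodes calponin, an inhibitor of the myosin ATPase (ENSMUSG00000001349, chromosome 9, 22099216 to 22109630), stood at 9.91 and 10.41 in DKO and at 9.36 and 8.45 in wild type (difference 1.26, SE 0.236, adjusted p = 0.00369). Lmod1, a leiomodin that starts actin filaments (ENSMUSG00000048096, chromosome 1, 135324807 to 135368065), had values of 7.92 and 8.03 in DKO, against 6.78 and 6.33 in wild type (difference 1.42, SE 0.142, adjusted p = 7.19e-05). Lmod1 varied least within the groups and had the smallest p of the 10, and its groups lay 1.1 apart at their nearest samples.

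The kinase and the anchoring proteins rose as well. Mylk, the myosin light chain kinase (ENSMUSG00000022836, chromosome 16, 34745210 to 35002420), had values of 10.59 and 10.83 in DKO, against 9.68 and 8.86 in wild type (difference 1.44, SE 0.198, adjusted p = 0.000515). Des, which encodes desmin, the intermediate filament of muscle (ENSMUSG00000026208, chromosome 1, 75360329 to 75368579), stood at 10.81 and 11.26 in DKO and at 10.24 and 9.21 in wild type (difference 1.31, SE 0.252, adjusted p = 0.00433). Synpo2, an actin-binding protein of dense bodies (ENSMUSG00000050315, chromosome 3, 123076519 to 123236149), had values of 8.53 and 8.89 in DKO, against 7.74 and 7.21 in wild type (difference 1.24, SE 0.165, adjusted p = 0.000413). As in the other members, the groups of these 3 genes did not overlap.

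The order of the samples was the same in all 10 genes: DKO replicate 2, DKO replicate 1, wild-type replicate 1 and wild-type replicate 2, from high to low. Over all tested genes 6.21% had this order, 25% had both DKO samples above both wild-type samples, and 30.3% had both below. Wild-type replicate 1 exceeded wild-type replicate 2 by 0.45 (Lmod1) to 1.04 (Actg2), with a median of 0.84, and DKO replicate 2 exceeded DKO replicate 1 by 0.11 (Lmod1) to 0.66 (Actg2), with a median of 0.39. In 4 genes (Actg2, Des, Cnn1 and Tagln) the gap between the wild-type samples was larger than the gap between the groups.

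Wild-type replicate 2 therefore weighs on the size of the differences. Without it all 10 genes still passed, with a median of 1.0 (from 0.77 to 1.28), and Actg2, Des and Cnn1 stood at 0.77, 0.79 and 0.80, against 1.29, 1.31 and 1.26 with all samples. Without wild-type replicate 1 the median was 1.82. A group left with a lone sample takes its spread from the other group in these fits.

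**Figure D2:**
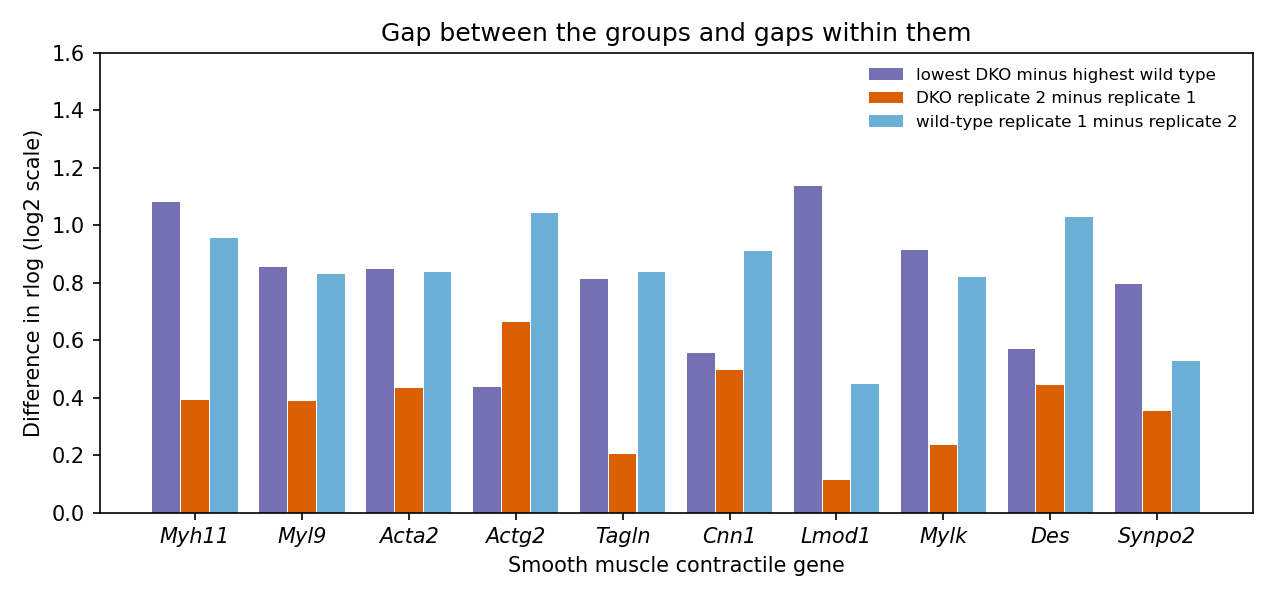
Differences in rlog (log2 scale, y axis) for each contractile gene (x axis): the lowest DKO value minus the highest wild-type value, and the gaps between the replicates of DKO and of wild type. The gap between the wild-type replicates exceeds the gap between the groups in Actg2, Des, Cnn1 and Tagln.

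Levels were compared between genes only per length, as rlog minus the log2 of the merged exon length in kb. On that scale Tagln was highest, at a mean of 11.07 in DKO and 9.74 in wild type, followed by Acta2 (10.78 and 9.30). Myl9 (10.48 in DKO and 9.02 in wild type) and Actg2 (10.37 and 9.08) came next and changed places between the groups, with distances well inside the spread of their samples. Mylk (7.22 and 5.78), Lmod1 (5.99 and 4.57) and Synpo2 (5.0 and 3.76) were lowest in both groups. Merged exons count every isoform, so the levels of Mylk and Synpo2, with 11263 and 13089 bases of exon, are set low if a short isoform prevails.

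Relatives of the members in the same protein families were measured as well, and 2 of them rose. Of the non-muscle myosins, Myh10 rose by 0.87 (SE 0.123, adjusted p = 0.000622), with 7.24 and 6.97 in DKO and 6.27 and 6.19 in wild type. Myh9, the heavy chain of leukocytes and most other cells, did not pass, at 13.40 and 13.57 in DKO and 13.53 and 13.40 in wild type (difference 0.021, 95% interval -0.21 to 0.25). Myh14 did not pass either (0.12, adjusted p = 0.422). The light chains Myl6 (0.14), Myl12a (0.0047, with the sign changed under median centring) and Myl12b (-0.16) did not pass, with adjusted p of 0.364, 0.985 and 0.302.

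Among the other actins none passed. Actb, the cytoplasmic beta actin, stood at 15.04 and 15.13 in DKO and at 15.36 and 15.45 in wild type (difference -0.32, adjusted p = 0.149), and Actg1 at 13.19 and 13.29 in DKO and at 13.34 and 13.26 in wild type (-0.061, adjusted p = 0.755). Acta1, the skeletal muscle actin, differed by 0.031 (adjusted p = 0.913), and Actc1, the cardiac form, lay under the minimum for testing at 2.40 and 2.76 in DKO and 2.25 and 2.38 in wild type. Tagln2 (-0.072, adjusted p = 0.749) and Cnn2 (-0.11, adjusted p = 0.524), forms that leukocytes express, did not pass, whereas Cnn3 rose by 0.48 (SE 0.0836, adjusted p = 0.00242). Lmod3, a leiomodin of skeletal muscle, was also under the minimum. With quantile normalization the signs of Actg1, Acta1 and Tagln2 were the opposite. The difference between a member and its relative was not tested.

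**Figure D3:**
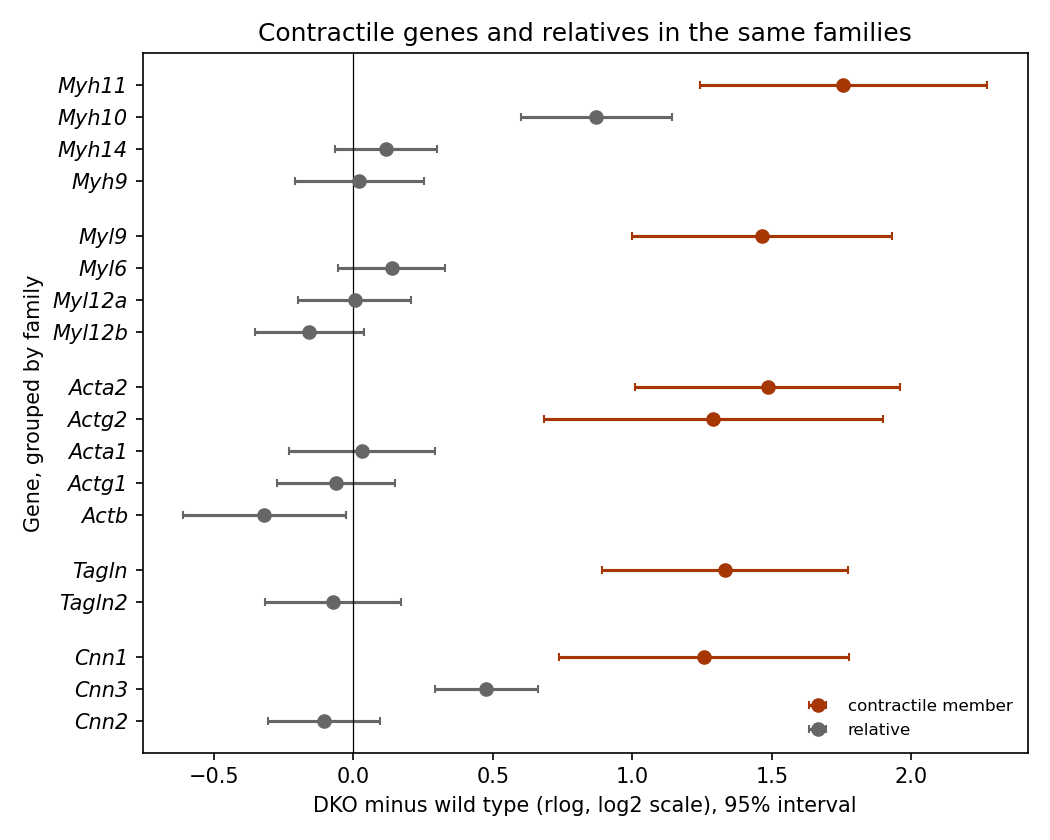
DKO minus wild type (rlog, log2 scale, x axis) with the unadjusted 95% interval of the limma fit, for contractile members (brown) and relatives of the same families (grey). Members lie between 1.26 and 1.76, and of the relatives only Myh10 (0.87) and Cnn3 (0.48) passed the adjusted test.

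These families are close in sequence, which could let reads be counted for the wrong gene. Over their coding bases Acta2 and Actg2 were 84.2% identical, Acta2 and Actb 82.8%, Myl9 and Myl12b 86.3%, and Myh11 and Myh9 74.8%. Few stretches of 50 bases were identical between genes: of the 50-base windows in annotated transcripts of Acta2 0.326% also occurred in a transcript of another gene, of Myh11 0.34%, of Mylk 0.107% and of Synpo2 0.038%. Of the other 6 members 0 such windows were shared. The read length is not known here. An exon of Tagln overlaps one of Pcsk7 on the opposite strand, which stood at 9.41 and 9.34 in DKO and 9.42 and 9.40 in wild type; whether reads were counted by strand is not known here.

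Around the members, further genes of the apparatus rose and 0 fell, against 9.92% of all tested genes called higher and 4.85% called lower. Of 11 tested thin filament genes outside the members 5 rose, with a median of 0.063 over all 11: Cald1, which encodes caldesmon (1.26, SE 0.118, adjusted p = 4.82e-05), the tropomyosins Tpm2 (1.30) and Tpm1 (0.99), smoothelin (Smtn, 0.97) and Cnn3. Of 6 tested genes of thick filaments and light chains 1 rose, Myh10 (median 0.069), which in so short a list is near the share of all genes. Of 13 genes that control the light chain kinase and phosphatase 4 rose, with a median of 0.090. They were Mrvi1, a substrate of the cGMP-dependent kinase that restrains calcium release (1.37, SE 0.154), Ppp1r14a, which encodes the phosphatase inhibitor CPI-17 (0.80), Ppp1r12b, a targeting subunit of the phosphatase (0.77), and the kinase Prkg1 itself (0.55, adjusted p = 0.00951, and 0.0669 without wild-type replicate 1). The wild-type mean of Prkg1, 3.995, was under the minimum of 4, and the DKO samples carried the gene into the test. Tpm2 did not pass with the robust variance estimate (adjusted p = 0.249).

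Of 25 tested genes of dense bodies, intermediate filaments and membrane anchors 16 rose, with a median of 0.45, against 9.92% of all tested genes. The caveola genes Cavin1 (1.16, SE 0.0782) and Cav1 (1.23, SE 0.0886), which endothelium also expresses, had the smallest p, followed by Fhl1 (1.16) and the integrin activator Fermt2 (1.41). Among filaments and linkers that most cells share, vinculin (Vcl) rose by 0.43 (adjusted p = 0.00762), while vimentin and talin did not pass, with vimentin (Vim) at 14.25 and 14.39 in DKO and 14.39 and 14.34 in wild type, and talin (Tln1) at a difference of -0.0085. Of 19 tested channel, calcium and receptor genes 11 rose, with a median of 0.55. The endothelin receptor Ednra rose by 1.21 (SE 0.11, adjusted p = 4.01e-05), the L-type calcium channel Cacna1c by 1.05, and the guanylate cyclase subunits Gucy1b1 and Gucy1a1 by 0.98 and 0.95. Of 19 genes of skeletal and cardiac muscle 7 were tested and 0 passed in limma, while 2 had an unadjusted p under 0.05, Ckm (0.58) and Tnnt2 (0.38). With 7 genes, 0 calls is not far from the 14.8% of all tested genes called in either direction. Ckm passed without wild-type replicate 1 (0.82, adjusted p = 0.00599) and without DKO replicate 1 (0.86, adjusted p = 0.000213), and Tnnt2 without DKO replicate 2 (0.45, adjusted p = 0.0195), with the robust variance estimate (adjusted p = 0.0386) and with no variance trend (adjusted p = 0.0382). Mylpf, a light chain of fast skeletal muscle, differed by -0.12. Myh4 and Myh6, heavy chains of fast skeletal and of cardiac muscle, are listed at 0 in all 4 samples.

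Among regulators, the partner of SRF rose and SRF itself did not pass. Srf stood at 10.21 and 10.45 in DKO and at 10.42 and 10.32 in wild type (difference -0.039, 95% interval -0.25 to 0.17, adjusted p = 0.846), with the sign changed under quantile normalization. Myocd, which encodes myocardin, had 4.50 and 4.39 in DKO, against 3.77 and 3.66 in wild type (difference 0.73, SE 0.112, adjusted p = 0.00104). Its level lay near the minimum for testing, where rlog shrinks most. The wild-type mean, 3.71, was under that minimum of 4, and the DKO samples carried the gene into the test. In all, 8 of 15 tested regulators rose and 0 fell, with a median of 0.35. The shares over all tested genes were 9.92% higher and 4.85% lower. The forkhead factor Foxf1 (1.23, SE 0.113) and the homeobox factor Nkx2-3 (1.09, SE 0.108), which act in the mesenchyme around the gut, had the smallest p, followed by Foxf2 (0.81). Tead1, which binds the M-CAT element, rose by 0.77, with 7.67 and 7.60 in DKO and 6.99 and 6.75 in wild type. Genes of the SRF partners Mrtfa (0.0031) and Mrtfb (0.20) did not pass.

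**Figure D4:**
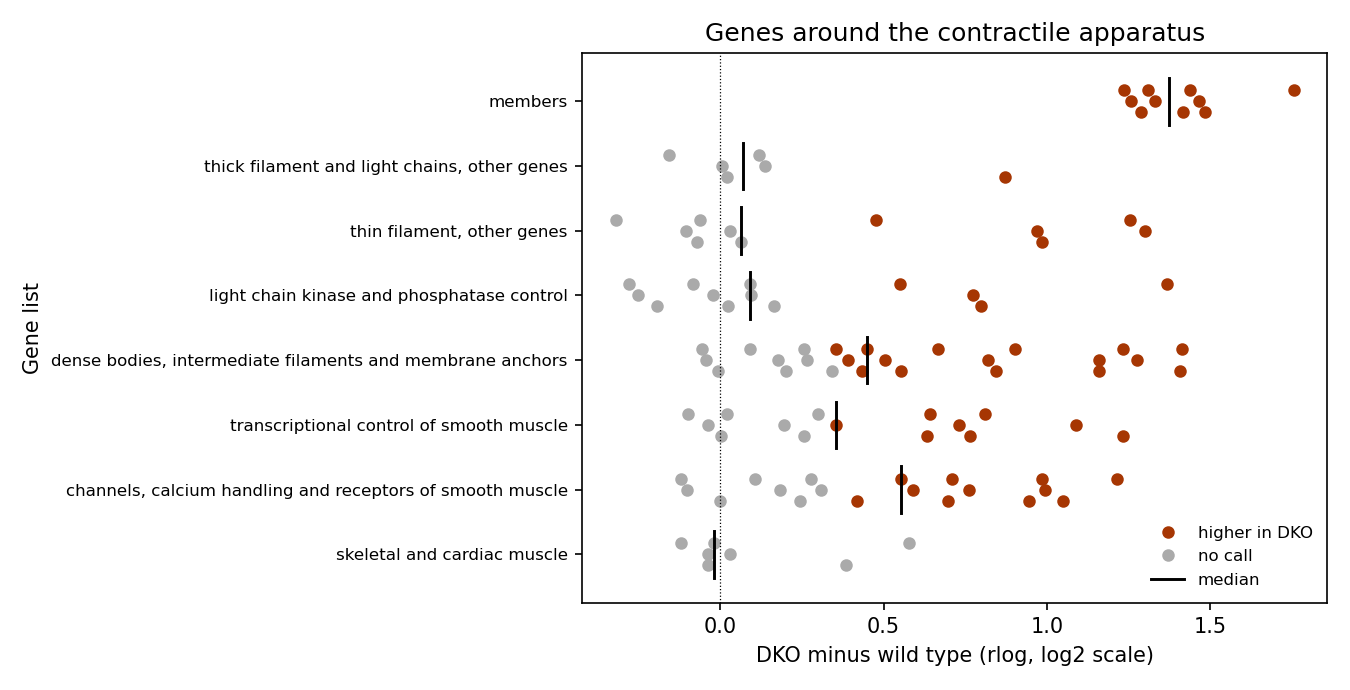
DKO minus wild type (rlog, log2 scale, x axis) of each tested gene in 8 lists (y axis), with calls at an adjusted p under 0.05 in brown, other genes in grey and the median of each list as a black line. The 10 members lie at 1.24 and above, the other lists reach down to differences below 0, and no gene of skeletal and cardiac muscle passed.

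The genes whose profile over the 4 samples was closest to the median profile of the members were Tpm2, the intermediate filament protein Synm, the Z-line and dense body protein Pdlim3, Pgm5, Mrvi1, the filamin Flnc, Pcp4l1 and the aggrecanase Adamts4. Likeness was the root mean square distance between values centred on each gene's own mean, which ran from 0.068 (Tpm2) to 0.155 (Adamts4), against 0.026 (Myl9) to 0.17 (Myh11) for the members. With 4 samples such a ranking is a description. All 8 were called higher, by 1.24 (Pcp4l1) to 1.41 (Pdlim3). The choice by likeness to the members in the same samples largely fixed this in advance, so it is no further result. With the robust variance estimate Synm and Flnc did not pass either (adjusted p = 0.122 and 0.0764).

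Genes of other cell types moved with the members. The share called higher over all tested genes was 9.92%. Of 15 tested genes of pericytes and vascular smooth muscle 14 rose, with a median of 0.84, and those with the smallest p were Aoc3 (0.96), Cspg4 (1.03), Pdgfrb (0.88) and Notch3 (1.09). All 11 endothelial genes rose, with a median of 1.21, and those with the smallest p were the growth factor receptor Kdr (1.55), Emcn (1.44), Plvap (1.45) and Tie1 (1.2). Of 14 fibroblast genes 12 rose, with a median of 0.88, and those with the smallest p were periostin (Postn, 1.73), the collagen Col1a2 (0.89), Pdgfra (1.07) and Cd34 (1.05). The log2 of the summed level was 12.32 and 12.29 in DKO and 11.53 and 11.11 in wild type for pericytes, 12.43 and 12.55 in DKO and 11.62 and 11.43 in wild type for endothelium, and 16.12 and 15.90 in DKO and 15.31 and 15.28 in wild type for fibroblasts. For the members it was 14.21 and 14.59 in DKO, against 13.41 and 12.52 in wild type. The members spanned the widest range of these 4 lists. The sums are not corrected for gene length, and the genes at high levels weigh most in them. The part of each other cell type in the difference of the members was not tested.

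Replicates differed in opposite ways. DKO replicate 1 exceeded DKO replicate 2 in 0 of the 10 members, in 6 of 15 pericyte genes, in 2 of 11 endothelial genes and in 12 of 14 fibroblast genes, against 49% of all tested genes. Wild-type replicate 1 exceeded wild-type replicate 2 in all 10 members and all 15 pericyte genes, in 8 of 11 endothelial genes and in 8 of 14 fibroblast genes, against 51.9% of all tested genes. No test was made of these counts, since the genes of a list share their samples.

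**Figure D5:**
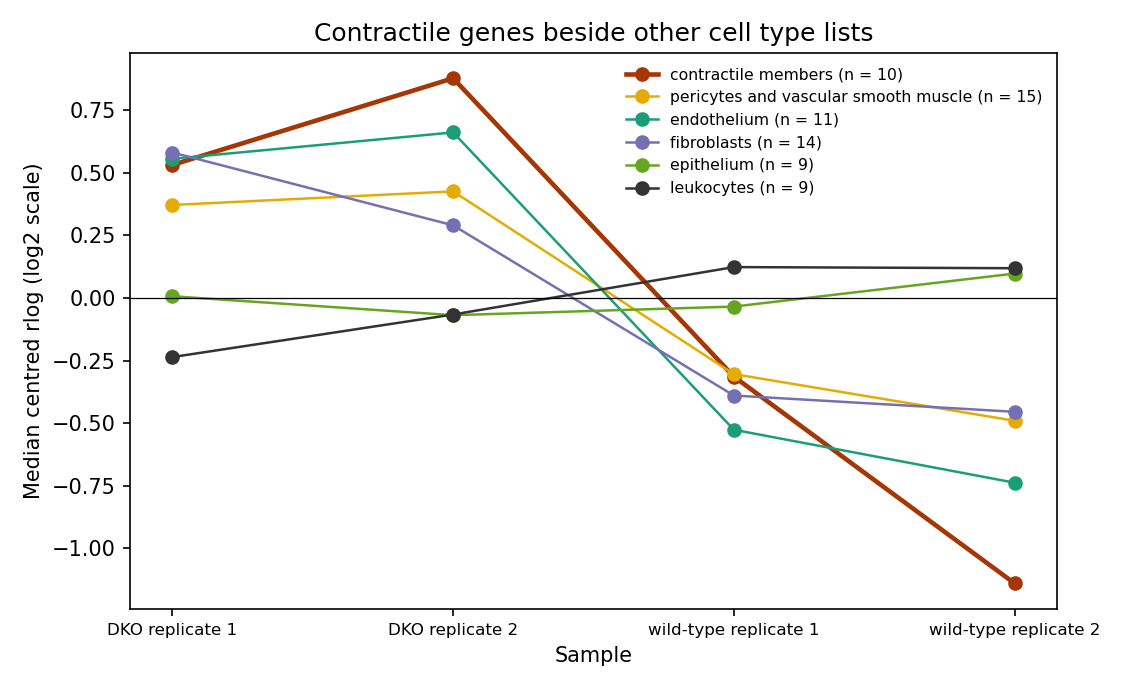
Median over each list of rlog centred on the gene's own mean (log2 scale, y axis) in each sample (x axis), with the number of tested genes. Members run from 0.88 in DKO replicate 2 to -1.14 in wild-type replicate 2, while fibroblast genes are highest in DKO replicate 1.

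The preparation held other cells of the gut wall beside leukocytes. Their counts stand beside 9.92% of all tested genes called higher. Of 7 tested genes of visceral muscle and of interstitial cells of Cajal, the pacemaker cells of the gut, 6 rose (median 1.04), among them Hhip (1.81), Cpxm2 (1.5), Gja1 (1.10) and the chloride channel Ano1 (1.04). Of 6 mesothelial genes 4 rose (median 0.58), led by Upk3b (1.21) and Msln (1.13), which did not pass with the robust variance estimate (adjusted p = 0.116 and 0.288). Without wild-type replicate 1 Msln differed by 0.73. The others were Lrrn4 (0.61) and Wt1 (0.56), whose calls ended when wild-type replicate 1 was left out (adjusted p = 0.162 and 0.275), that of Lrrn4 also without DKO replicate 1 (adjusted p = 0.0593). Both calls also ended with quantile normalization (adjusted p = 0.055 for Lrrn4 and 0.113 for Wt1). Lrrn4 averaged 3.86 in wild type, short of the required mean rlog of 4. Its DKO mean of 4.47 alone brought it among the tested genes. Of 3 tested genes of enteric neurons and glia, Tubb3 (0.46) and Ret (0.42) rose, but their calls ended when wild-type replicate 2 was left out (adjusted p = 0.202 and 0.225), that of Ret also without DKO replicate 1 (adjusted p = 0.0742). With quantile normalization neither passed (adjusted p = 0.133 for Tubb3 and 0.0633 for Ret). The third, Uchl1, differed by 0.31 (adjusted p = 0.0975).

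Of 9 epithelial genes 0 passed in limma (median -0.032), and 1 had an unadjusted p under 0.05, Krt20 (0.22). Of all tested genes 14.8% were called in either direction and 4.85% lower in DKO. At that share 0 calls in so short a list is not a result about it. Krt18 (-0.18) passed without DKO replicate 1 (-0.29, adjusted p = 0.0321), Elf3 differed by -0.19, and Epcam stood at 10.78 and 10.75 in DKO and at 10.84 and 11.05 in wild type. Of 9 tested leukocyte genes 3 fell: the integrin Itgam (-0.84), Cd52 (-0.53) and Csf1r (-0.41, adjusted p = 0.0264, 0.204 without wild-type replicate 1 0.0668 without DKO replicate 1 and 0.0839 with quantile normalization). Coro1a differed by -0.32 (adjusted p = 0.071) and passed with the robust variance estimate (adjusted p = 0.0404) and without DKO replicate 2 (-0.42, adjusted p = 0.00685). The leukocyte marker Ptprc was abundant in every sample, at 14.20 and 14.02 in DKO and 14.22 and 14.26 in wild type. Of 11 tested genes listed for RNA quality 0 passed in limma, again too short a list to set apart from 14.8%. The list holds mitochondrial genes, Malat1, Neat1 and haemoglobin genes, and the last come from blood. Malat1 (0.59) and Hbb-bt (0.21) had an unadjusted p under 0.05. All 11 were higher in DKO replicate 1 than in DKO replicate 2, and without DKO replicate 2 Malat1 (1.05), mt-Cytb (0.62), Hbb-bs (0.34) and Hbb-bt (0.29) passed. Their part in the difference of the members was not tested.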

How the data were processed

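Messenger RNA was sequenced from stranded libraries, per the labels' protocols. The authors deposited log2 values, rlog of DESeq2, per the name of the table and the submitters' processing notes, which also name STAR 2.5.4a, BWA 0.7.14-r1136, featureCounts, Subread 1.5.2, cutadapt 1.9.1, bcl2fastq 2.17.1.14 and the build GRCm38. Their roles and parameters are not stated in the sources used here. Rlog shrinks the values of a gene over the samples of the table, which also has 2 columns of no labelled sample, not used here. Counts were not analysed here, so depth is unknown and no interval rests on it. The median rlog of tested genes was 8.33 to 8.35 in the 4 samples.

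Groups came from the treatment label. Replicate numbers follow accession order and pair no samples. The series' text calls the replicates biological, without saying how many animals each came from. The p-values therefore cover only the spread among these samples. A mean rlog of at least 4 was required for testing (13528, including all 10 members) in R 4.3.3 with limma 3.58.1, with a variance trend (8.9 prior and 2 residual degrees of freedom), two-sided, Benjamini-Hochberg adjustment and a threshold of 0.05. The code was tested on simulated data. Python 3.11.15, pandas 2.3.3 and matplotlib 3.10.9 made tables and figures.

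The members, the lists and the tests were chosen with earlier results of these data known. The text names the members, their relatives, Srf, Myocd, in each list the up to 4 genes lowest in p, and the 8 genes most like the members. Vim, Tln1, Vcl, Mrtfa, Mrtfb, Ptprc, Pcsk7, Krt19, Upk1b, Neat1 and the genes listed at 0 were added after their values were seen, as were the motifs searched. Alternatives were other minimums, no trend, a robust variance estimate, median centring, quantile normalization, array weights and leaving out each sample.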

Additional observations from a re-analysis of the deposited data

How the results depend on the processing

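The 10 members kept a positive difference under all 11 alternatives. All 10 passed under 9 of them, 2 with a robust variance estimate and 0 with no minimum on the mean rlog, where rows at 0 in all 4 samples were left out, 25186 genes were fitted, and 181 were called higher and 25 lower over the whole table. The cause was not tested. With a minimum of 6, 878 genes were called higher. Leaving out 1 sample at a time gave 1008 to 1660 genes called higher and 324 to 1222 called lower, with 10 members higher each time and their median between 1.0 and 1.82. The lowest count of falls came without wild-type replicate 2 and the highest without DKO replicate 2. Genes without a call changed sign. With median centring Myl12a stood at -0.0054, and with quantile normalization Actg1 at 0.063, Acta1 at -0.064, Tagln2 at 0.064 and Srf at 0.022. Leaving out 1 sample at a time, Acta1 ranged from -0.092 to 0.15, Srf from -0.16 to 0.079, Tnnt3 from -0.21 to 0.14, Myh9 from -0.062 to 0.10, Myl12a from -0.058 to 0.067, Tagln2 from -0.23 to 0.083, Cnn2 from -0.21 to 5.5e-05, mt-Cytb from -0.063 to 0.62 and Hbb-bs from -0.039 to 0.34. No paired analysis was possible because the labels carry no replicate numbers. Depth is unknown, and with 2 samples a group the spread of each gene rests largely on that of genes of like level.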
